A study of Mus musculus with 4 samples.

Results

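Rgs5-high smooth muscle cells are 1448 of 13468 cells kept from single-cell RNA sequencing of C57BL/6J mouse aortas, taken at 12 weeks of age from the ascending part and the arch. A cell was counted as Rgs5-high where at least 5 of its UMIs (unique molecular identifiers, each standing for 1 captured RNA molecule) and at least 5 per 10000 came from Rgs5. Of the other kept cells, 10963 held under 2 Rgs5 UMIs per 10000 and are called Rgs5-low, and 1057 lay between. The KO mice (Tgfbr1/2iSMCKO) carried floxed Tgfbr1 and Tgfbr2, which encode the receptor pair that carries TGF-beta signals, and the WT mice (GFPiSMC) did not. Both genotypes carried Myh11-CreERT2, a tamoxifen-inducible Cre recombinase expressed from a smooth muscle promoter, and the mT/mG reporter, in which recombination replaces tdTomato with eGFP. All mice had tamoxifen for 5 days, at 1 mg per day at 4 weeks of age or at 2 mg per day at 11 weeks. The labels do not tie a course to a library, so whether the course differed between genotypes is not known here. GFP-positive, viable single cells were sorted after digestion in the cold, giving 2 KO and 2 WT libraries. The labels speak of individual aortic segments without giving the number of mice per library, so p-values measure the spread between these libraries.

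Rgs5 encodes a regulator of G-protein signalling, a protein that speeds the shut-off of Gq- and Gi-coupled receptors and so limits the response of a muscle cell to vasoconstrictors. It is a common marker of pericytes, the mural cells of capillaries, and is also made by arterial smooth muscle. Smooth muscle of the ascending aorta and arch comes from both the cardiac neural crest and the second heart field. Homeobox genes of the Dlx, Msx and Prrx families pattern the pharyngeal arches, through which neural crest cells reach the great arteries.

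The letters upstream of 3 genes that this account turns on are shown from the RefSeq promoter table (GRCm38.p6), as the 250 bases before the annotated start, 5′ to 3′ on the gene's strand. Rgs5 is shown because its level defines the cells (chr1:169655251-169655500, plus strand, with TATATA in capitals, which begins 30 bases before the start). Msx2 (chr13:53472781-53473030, minus strand) and Dlx6os1 (chr6:6869534-6869783, minus strand) are shown because they were among the 15 largest rises in these cells and hold TAATTA, in capitals, letters that homeodomain proteins are known to bind.
Rgs5: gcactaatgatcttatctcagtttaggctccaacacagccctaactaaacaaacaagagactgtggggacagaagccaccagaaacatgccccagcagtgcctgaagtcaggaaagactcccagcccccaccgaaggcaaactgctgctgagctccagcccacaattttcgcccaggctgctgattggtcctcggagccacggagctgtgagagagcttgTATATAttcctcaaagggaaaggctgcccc
Msx2: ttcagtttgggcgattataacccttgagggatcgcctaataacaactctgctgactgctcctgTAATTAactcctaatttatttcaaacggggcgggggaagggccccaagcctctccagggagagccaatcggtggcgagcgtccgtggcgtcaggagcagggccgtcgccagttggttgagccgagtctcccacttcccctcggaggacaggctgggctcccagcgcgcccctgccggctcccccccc
Dlx6os1: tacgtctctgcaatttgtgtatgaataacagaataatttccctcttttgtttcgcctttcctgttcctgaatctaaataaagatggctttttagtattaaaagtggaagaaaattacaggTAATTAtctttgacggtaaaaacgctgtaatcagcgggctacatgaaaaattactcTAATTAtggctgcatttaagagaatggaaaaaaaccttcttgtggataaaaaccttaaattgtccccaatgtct
TATATA was in 5.25% of the 32851 windows of the table, on either strand. TAATTA, which reads the same on both strands, was in 4.84% of all windows. Of the 15 genes with the largest rises in Rgs5-high cells, described further on, 12 had windows, and 4 of their 16 windows held it (Lpar1, Msx2 and 2 windows of Dlx6os1). Of the 15 genes with the largest falls, 13 had windows, and 0 of their 15 windows held it.

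Rgs5-high cells made up 6.16% of the kept cells of KO 1 (262 of 4252 cells, 95% exact Clopper-Pearson interval 5.46 to 6.93%) and 13.8% of those of KO 2 (486 of 3522, 12.7 to 15%). In WT 1 they were 10.3% (249 of 2429, 9.07 to 11.5%) and in WT 2 13.8% (451 of 3265, 12.6 to 15%). The 2 KO libraries lay on either side of WT 1. The mean share was 9.98 ± 5.40% in KO and 12.0 ± 2.52% in WT (SD, n = 2 each), a difference smaller than the spread between the KO libraries. A two-sided exact permutation test gave p = 0.6667, where the smallest p this design can give is 0.3333. With every cell thinned to 5000 UMIs and at least 3 Rgs5 UMIs asked for, the shares were 6.36% and 14.3% in KO and 10.7% and 14.6% in WT. Thinning left out 150 and 169 cells of the KO libraries and 197 and 162 of the WT libraries.

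The median Rgs5-high cell held 10.3 and 12.8 Rgs5 UMIs per 10000 in KO and 11.9 and 15.4 in WT. Levels of 20 per 10000 or more were reached by 41 of 262 and 137 of 486 Rgs5-high cells in KO and by 80 of 249 and 188 of 451 in WT. Rgs5-high cells carried 62.9% and 82.2% of all Rgs5 UMIs of the KO libraries and 81.3% and 86.2% of those of the WT libraries. Over all kept cells Rgs5 stood at 110.5 and 260.3 CPM (UMIs of the gene per 1000000 UMIs) in KO and at 223 and 340.3 CPM in WT. The distribution had no gap at the limit: 156 cells held 5 to under 6 Rgs5 UMIs per 10000, and 206 held 4 to under 5. A further 68 cells met the level but held fewer than 5 Rgs5 UMIs, and count as cells in between.

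**Figure D1:**
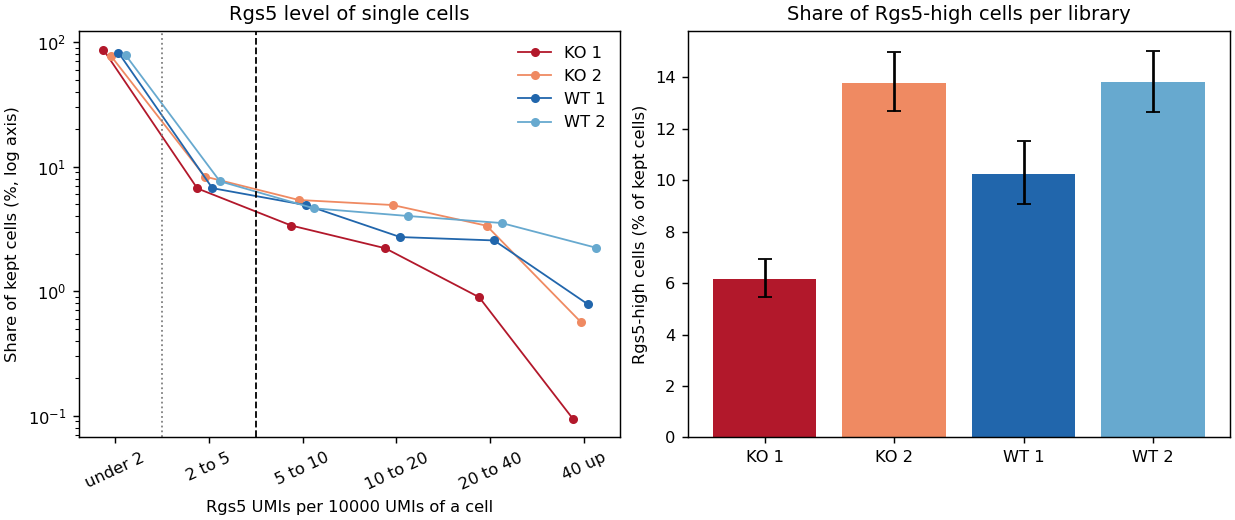
Left, the share of kept cells (%, log axis) in 6 ranges of Rgs5 UMIs per 10000 for each library, with the limit of Rgs5-low cells dotted and that of Rgs5-high cells dashed. Right, the share of Rgs5-high cells per library with 95% exact binomial intervals, which cover counting error only. WT 2 had the largest share of cells at 40 or more per 10000 (2.24%) and KO 1 the smallest (0.0941%).

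The median UMI count of Rgs5-high cells was 12552 and 13177 in KO and 15302 and 14622 in WT, against 14082 and 14695 in KO and 14705 and 15553 in WT for Rgs5-low cells, so it was lower than that of Rgs5-low cells in 3 of 4 libraries. The summed profiles tested here held 3386301 to 6854766 UMIs per library in Rgs5-high and 28857025 to 51941215 in Rgs5-low cells. Between any pair of libraries 2 to 5 kept barcodes were shared, 17 in sum.

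Rgs5-high cells expressed the genes that define smooth muscle, and some but not all markers of pericytes. The 23 smooth muscle markers together took up 68799 and 64854 CPM in KO and 64254 and 61529 CPM in WT, against 87685 and 85339 CPM in KO and 72250.3 and 75909 CPM in WT in Rgs5-low cells. eGFP stood at 6959, 6191, 5070.2 and 4812 CPM in Rgs5-high cells, against 8386, 8514, 5991 and 6349 CPM in Rgs5-low cells (KO 1, KO 2, WT 1 and WT 2 in each case, the order kept below). These eGFP levels are scaled by TMM factors of the summed profiles, unlike the list sums of this paragraph. Unscaled, and without the KO cells high in Eln described further on, eGFP stood at 7441 and 6855 CPM in KO Rgs5-high cells. In KO Rgs5-low cells it then stood at 7996 and 8011 CPM. The 16 pericyte markers listed beside Rgs5 summed to 929 and 988 CPM in KO and 1130.1 and 1085 CPM in WT, against 794 and 783 CPM in KO and 1169 and 1064 CPM in WT in Rgs5-low cells. Among them, Higd1b, Vtn and Atp13a5 had 0 UMIs in all libraries and both classes, which allows up to 0.145 CPM over all Rgs5-high cells, 3 counts of their total. Summed over 15 macrophage markers the level was 1.48 to 3.75 CPM in Rgs5-high and 1.46 to 16.6 CPM in Rgs5-low cells, and over 10 Schwann and glial markers 14.6 to 20.4 and 10.3 to 13.1 CPM. The 13 endothelial markers summed to 83.6 to 104 CPM in Rgs5-high and 72.0 to 94.1 CPM in Rgs5-low cells, and the 14 fibroblast markers to 1565 to 2469 and 1159 to 1499 CPM. Cells with at least 5 UMIs of endothelial, macrophage and glial markers together made up 3.44% and 5.76% of Rgs5-high cells in KO and 6.43% and 7.98% in WT, against 2.06% and 2.38% of Rgs5-low cells in KO and 5.85% and 6.05% in WT, and the comparison between classes called 3107 genes without them and without high doublet scores, against 3346 with them.

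Tgfbr1 and Tgfbr2, the deleted genes, were counted in Rgs5-high cells of every library, Tgfbr1 at 79.2 and 94.9 CPM in KO and 85.5 and 79.1 CPM in WT and Tgfbr2 at 39.9 and 44.5 CPM in KO and 49.0 and 45.3 CPM in WT. These levels carry the TMM scaling, as do the tdTomato levels of KO below. Reads from the 3′ end can lie outside a deleted part, which the labels do not name, so these levels do not check the deletion. tdTomato, the reporter before recombination, stood at 9.42 and 10.8 CPM in the Rgs5-high cells of KO and had 0 UMIs in those of both WT libraries, which allows up to 0.281 CPM over both.

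The 5 other genes named with the group, Adamtsl1, Prrx2, Dlx6, Fbln1 and Sfrp2, were chosen with results of these data known, and their class levels are given with no test. Levels below are CPM scaled by TMM factors of the summed profiles unless stated otherwise. Adamtsl1, a secreted ADAMTS-like protein without protease activity, stood at 139, 242, 78.6 and 141 CPM in the Rgs5-high cells of KO 1, KO 2, WT 1 and WT 2, against 2.53, 5.69, 0.364 and 0.846 CPM in the Rgs5-low cells of the same libraries. Its reads overlap Sh3gl2 on the same strand and may be split with it. Dlx6, a homeobox factor of the pharyngeal arches, stood at 58.7, 85.0, 38.5 and 70.0 CPM in Rgs5-high cells, against 1.5, 3.06, 1.24 and 1.34 CPM in Rgs5-low cells. Fbln1, a fibulin of basement membranes and elastic fibres, stood at 42.1, 53.5, 84.7 and 94.4 CPM in Rgs5-high cells, against 1.96, 4.43, 2.00 and 1.61 CPM in Rgs5-low cells. In these 3 genes the lowest Rgs5-high library was several times above the highest Rgs5-low library. Prrx2, a homeobox factor of limb and arch mesenchyme, stood at 214, 254, 78.3 and 130.5 CPM in Rgs5-high cells, against 31.4, 29.3, 8.85 and 10.6 CPM in Rgs5-low cells, and Sfrp2, a secreted Wnt-binding protein, at 519, 604, 689 and 977 CPM in Rgs5-high cells, against 197, 179.9, 141 and 168 CPM in Rgs5-low cells. Sfrp2 and Prrx2 were the most abundant of the 5 in Rgs5-low cells, and Prrx2 was higher in KO than in WT in both classes.

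At the level of single cells the 5 genes overlapped only in part. At least 3 of the 5 were found in 56.1% and 77.0% of Rgs5-high cells in KO and in 39.0% and 57.6% in WT, against 1.65% and 3.01% of Rgs5-low cells in KO and 0.5% and 0.864% in WT. None of the 5 was found in 3.05% and 3.70% of Rgs5-high cells in KO and in 12.4% and 5.76% in WT. Adamtsl1 and Dlx6 were higher in each higher range of Rgs5 within the group in every library, and the other markers were not. From 10 to 20 to at least 20 Rgs5 UMIs per 10000, Prrx2 went from 290 to 286 CPM in KO 1. Over the same step in KO 2, Fbln1 went from 63.5 to 54.5 CPM and Sfrp2 from 728 to 619 CPM. In cells with 5 to 10, 10 to 20 and at least 20 Rgs5 UMIs per 10000, Adamtsl1 stood at 106, 172 and 234 CPM in KO 1 and at 164, 263 and 409.9 CPM in KO 2. It stood at 25.5, 65.7 and 175 CPM in WT 1 and at 42.2, 97.7 and 271 CPM in WT 2. These levels are CPM of the cells' own UMIs, without further scaling. Cells in between, with 2 to 5 Rgs5 UMIs per 10000, already held 37.6 and 68.7 CPM of Adamtsl1 in KO, against 2.79 and 12.6 CPM in WT.

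**Figure D2:**
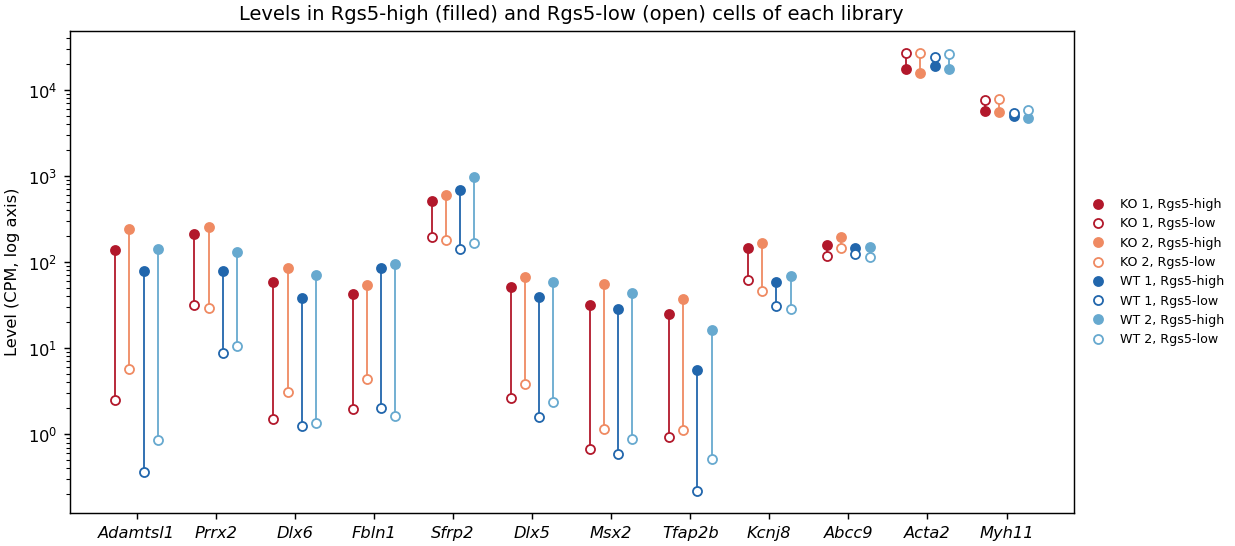
Levels (CPM, log axis) of 12 genes in Rgs5-high cells (filled) and Rgs5-low cells (open) of each library, joined by a line. Adamtsl1, Dlx6, Fbln1, Dlx5, Msx2 and Tfap2b lie far apart in every library, Kcnj8 and Abcc9 less so, and Acta2 and Myh11 lie lower in Rgs5-high cells.

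**Figure D3:**
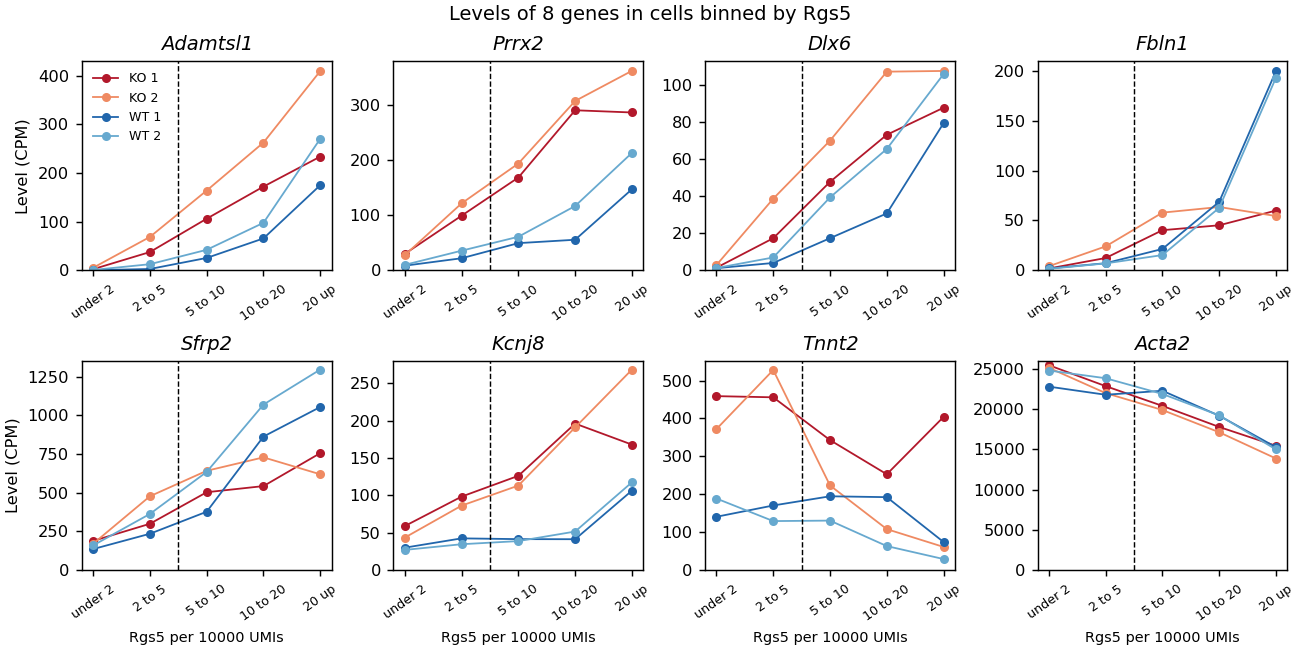
Levels (CPM of the cells' own UMIs) of 8 genes by range of Rgs5 UMIs per 10000 in each library, with the limit of Rgs5-high cells dashed. Fbln1 stood at 60.0 and 54.5 CPM in the top range of KO 1 and KO 2, against 200 and 193 CPM in that of WT 1 and WT 2, and Acta2 was lowest in the top range of all 4 libraries.

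The comparison of Rgs5-high with Rgs5-low cells of the same library asked what else such cells express. Among 13008 genes tested without Rgs5, 1619 were higher (12.4%) and 1727 lower (13.3%) in Rgs5-high cells at an adjusted p under 0.05 in edgeR's quasi-likelihood test, 25.7% in all. At least a 2-fold difference was reached by 495 of the higher (3.81%) and 199 of the lower genes (1.53%). Because the cells were picked by 1 transcript, any gene that varies with it between cells can differ. Hhip had the largest rise of the called genes that averaged 20 CPM or more in Rgs5-high cells. Hhip, a cell-surface protein that binds and restrains hedgehog ligands, stood at 28.5, 55.4, 34.9 and 38.1 CPM in the Rgs5-high cells of KO 1, KO 2, WT 1 and WT 2, against 0.465, 0.617, 0 and 0.0273 CPM in the Rgs5-low cells of the same libraries (log2 difference 6.98, SE 0.31, adjusted p = 2.53e-08). The WT Rgs5-low cells held 0 and 1 Hhip UMIs, so the size of this difference depends on how such counts are handled. Msx2, a homeobox repressor of neural crest and bone, stood at 31.9, 56.2, 28.5 and 44.3 CPM in Rgs5-high cells, against 0.667, 1.15, 0.583 and 0.873 CPM in Rgs5-low cells (log2 difference 5.61, SE 0.11, adjusted p = 4.01e-11). Every Rgs5-high library lay far above every Rgs5-low library. Tfap2b, an AP-2 factor needed for closure of the ductus arteriosus, stood at 24.9, 37.6, 5.65 and 16.2 CPM in Rgs5-high cells, against 0.93, 1.13, 0.218 and 0.518 CPM in Rgs5-low cells (log2 difference 4.90, SE 0.15, adjusted p = 1.99e-09). Dlx5, the neighbour of Dlx6 in the genome, stood at 51.8, 67, 39.0 and 58.8 CPM in Rgs5-high cells, against 2.63, 3.87, 1.60 and 2.35 CPM in Rgs5-low cells (log2 difference 4.38, SE 0.10, adjusted p = 2.2e-10).

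The other large rises included genes of adhesion, matrix and receptors. Mdga2, a membrane-anchored synaptic adhesion protein, rose by a log2 difference of 6.12, and Spock2, an extracellular proteoglycan, by 5.83. Prss12, a secreted protease of synapses, rose by 5.69 and Lrrtm3, a synaptic leucine-rich repeat protein, by 4.18. Lpar1, a receptor for lysophosphatidic acid (4.76), Gng2, a G-protein gamma subunit (4.55), and Tshz2, a zinc finger factor (4.25), rose too, with adjusted p-values of 1.51e-07, 4.56e-08 and 1.86e-08. The 15 largest rises had to be higher in Rgs5-high cells in 4 of 4 libraries, as 19.6% of all tested genes were. A further 21.9% were lower in 4 of 4. Dlx6os1 (5.20), an antisense RNA of the Dlx locus, overlaps Dlx6 on the other strand, and the reads of the 2 cannot be told apart where counting does not use strand, which is not stated here.

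Of 28 tested transcription factors of the pharyngeal arches and neural crest, 16 rose, 5 fell and 7 did not pass, with a median log2 difference of 0.53 against 0.01 over all genes. Beside Msx2, Dlx5 and Tfap2b, the rises took in Dlx1, Dlx2, Barx1, Osr1, Foxf1, Sox9, Shox2, Prrx1 and Msx1. The falls were Hand2, Tfap2a, Ets1, Pbx3 and Twist2. Hand2, a factor of both arch mesenchyme and heart, was the most abundant of those and stood at 114, 69.2, 95 and 64.3 CPM in Rgs5-high cells, against 189, 188, 128 and 121 CPM in Rgs5-low cells (log2 difference −0.89, SE 0.12, adjusted p = 0.000157). Of 10 tested Hox genes, which give position along the body axis, 8 rose and 0 fell, with a median of 0.46. Hoxa3, a gene of the third arch, stood at 47.9, 44.8, 54.9 and 63.0 CPM in Rgs5-high cells, against 37.4, 32.8, 49.0 and 43.8 CPM in Rgs5-low cells (log2 difference 0.39, SE 0.07, adjusted p = 0.000759), and Hoxd4 and Hoxb4 were higher by 1.89 and 0.46 on the log2 scale. Of 17 tested second heart field and cardiac factors, 3 rose (Tbx3, Mef2a and Isl1), 5 fell (Tbx20, Hand2, Irx3, Gata4 and Tbx2) and 9 did not pass, with a median of −0.03. Tbx20, a T-box factor of heart muscle and outflow tract, stood at 11.4, 6.54, 16.7 and 8.37 CPM in Rgs5-high cells, against 31.3, 29.9, 28.1 and 19.7 CPM in Rgs5-low cells (log2 difference −1.41, SE 0.17, adjusted p = 6.75e-05).

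Contractile transcripts were lower in Rgs5-high cells. Of 23 tested smooth muscle markers, 18 fell, 3 rose and 2 did not pass, with a median of −0.31. Acta2, smooth muscle actin, stood at 17619, 15708, 19123 and 17611 CPM in Rgs5-high cells, against 26792, 26818, 23989 and 26385 CPM in Rgs5-low cells (log2 difference −0.56, SE 0.07, adjusted p = 6.93e-05). Tagln, a calponin-family actin-binding protein, differed by −0.71 and Ppp1r14a, an inhibitor of myosin phosphatase, by −1.02. In all 4 libraries Acta2 in Rgs5-high cells lay below its level in the Rgs5-low cells of any library. Sncg, gamma-synuclein, was among the strongest falls, at 32.7, 34.7, 33.4 and 26.6 CPM in Rgs5-high cells, against 203, 237, 159 and 117 CPM in Rgs5-low cells (log2 difference −2.45, SE 0.09, adjusted p = 6.35e-09). The 3 that rose were Casq2, a calcium store protein, Pcp4l1 and Itga8, an integrin chain, at log2 differences of 4.07, 0.45 and 0.18. Itga8 lost its call without WT 2 (adjusted p = 0.110) and without KO 1 (0.0776), and both Pcp4l1 (0.290) and Itga8 (0.649) lost theirs without the library term.

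Of the pericyte markers, 10 of 16 were tested beside Rgs5, 5 rose (Kcnj8, Abcc9, Cd248, Anpep and Pdgfrb) and 4 fell. Kcnj8, the pore of the ATP-sensitive potassium channel of vascular muscle, stood at 147, 166, 59.3 and 69.9 CPM in Rgs5-high cells, against 61.7, 46.0, 31.2 and 28.4 CPM in Rgs5-low cells (log2 difference 1.39, SE 0.11, adjusted p = 2.72e-06). Abcc9, its sulphonylurea receptor subunit, stood at 159, 196, 146 and 150.4 CPM in Rgs5-high cells, against 119, 147, 125 and 114 CPM in Rgs5-low cells (log2 difference 0.37, SE 0.05, adjusted p = 0.000185). Both were present in Rgs5-low cells of every library as well. Notch3, a receptor of mural cells, stood at 20.2, 11.6, 14.1 and 11.9 CPM in Rgs5-high cells, against 39.5, 39.4, 33.9 and 26.7 CPM in Rgs5-low cells (log2 difference −1.30, SE 0.11, adjusted p = 5.19e-06), and Mcam, Art3 and Cspg4 also fell. Unscaled, Cspg4 stood at 222, 229, 346 and 348 CPM in Rgs5-high cells, against 216, 216, 352 and 361 CPM in Rgs5-low cells. Its fall in KO thus rests on the TMM scaling. Of 7 tested cardiomyocyte markers 0 rose and 4 fell (Actc1, Myl4, Ryr2 and Tnnt2).

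Receptors and channels changed in both directions. Of 28 tested vasoactive receptors 11 rose and 8 fell, with a median of 0.34. Ednra, the endothelin A receptor, stood at 36.3, 59.8, 25.2 and 32.9 CPM in Rgs5-high cells, against 5.34, 6.31, 3.86 and 3.57 CPM in Rgs5-low cells (log2 difference 3.02, SE 0.11, adjusted p = 4.13e-09), and Calcrl, part of the receptors for CGRP and adrenomedullin, was higher by 1.69. P2rx1, an ATP-gated channel that mediates contraction to sympathetic ATP, stood at 2.49, 2.18, 2.31 and 3.90 CPM in Rgs5-high cells, against 14.9, 15, 14.7 and 13.4 CPM in Rgs5-low cells (log2 difference −2.35, SE 0.17, adjusted p = 1.12e-06). The ion channel list had 30 tested members, of which 13 rose and 10 fell, with a median of 0.16. Piezo1, a stretch-gated channel (1.80), and Kcne4, a potassium channel subunit (1.09), rose. Of 11 other tested RGS genes 4 rose (Rgs10, Rgs4, Rgs6 and Rgs12), and Rgs17, Rgs2 and Rgs7bp fell. Rgs4, a small RGS protein of the same subfamily as Rgs5, stood at 84.5, 90.1, 156 and 129.7 CPM in Rgs5-high cells, against 36.4, 52.2, 85.8 and 91.1 CPM in Rgs5-low cells (log2 difference 0.82, SE 0.09, adjusted p = 2.49e-05).

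Among matrix genes, elastic fibre genes were mostly higher and proteoglycan genes mostly lower. Beside them, 5 of 10 tested fibroblast markers rose (Mfap5, Scara5, Pdgfra, Pi16 and Col1a1) and 1 fell (Gsn). A UMI of Pdgfra, a receptor that marks fibroblasts, was found in 17.9% and 20.2% of Rgs5-high cells in KO and 14.5% and 14.9% in WT, against 7.08% and 5.87% of Rgs5-low cells in KO and 5.85% and 7.31% in WT. The part of other cells in the matrix differences was not tested. Of 21 tested elastic fibre genes 14 rose, 1 fell (Fbln2) and 6 did not pass, with a median of 0.50. Ltbp2, a microfibril protein, stood at 74.5, 89.5, 163 and 241 CPM in Rgs5-high cells, against 16.6, 16.5, 44.5 and 52.5 CPM in Rgs5-low cells (log2 difference 2.17, SE 0.08, adjusted p = 4.13e-09), and Mfap5, a microfibril-associated glycoprotein, at 659, 728, 1055 and 1216 CPM in Rgs5-high cells, against 281, 303, 399 and 432 CPM in Rgs5-low cells (log2 difference 1.35, SE 0.05, adjusted p = 1.16e-08). Every Rgs5-high library lay above the Rgs5-low cells of its own library in both. Of 23 tested collagens 13 rose and 4 fell, with a median of 0.25, and Col14a1, a fibril-associated collagen, rose by 1.32 on the log2 scale. Of 24 tested proteoglycan and matricellular genes 4 rose and 13 fell, with a median of −0.56. Tnxb, tenascin X, had the smallest p among the falls (log2 difference −1.78), followed by Prelp, a small leucine-rich proteoglycan (−1.15). Vcan, versican, went the other way, at 118, 127, 278 and 327 CPM in Rgs5-high cells, against 30.6, 27.8, 70.8 and 68.3 CPM in Rgs5-low cells (log2 difference 2.11, SE 0.06, adjusted p = 9.51e-10).

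Immediate early genes were lower in Rgs5-high cells. Among 29 tested members of the immediate early and stress list, 20 fell and 3 rose, and 6 did not pass, with a median of −0.67. Jun, an AP-1 subunit, stood at 433, 236, 469 and 489 CPM in Rgs5-high cells, against 740.4, 518, 803 and 928 CPM in Rgs5-low cells (log2 difference −0.90, SE 0.06, adjusted p = 8.6e-07). All 30 respiratory chain genes had a log2 difference at or below 0 and 18 passed the test, none upward, with a median of −0.19. Unscaled, they summed to 11002, 10500, 9644 and 9400 CPM in Rgs5-high cells, against 11517, 11056, 9677 and 9712 CPM in Rgs5-low cells. These sums do not carry the TMM scaling, which lowered Rgs5-high against Rgs5-low levels in every library. Of 20 tested genes of endoplasmic reticulum stress and folding 10 rose and 1 fell, with a median of 0.19. Of 34 tested axon guidance genes 14 rose and 4 fell, and Sema3c, a semaphorin of outflow tract development, stood at 239, 281, 231 and 257 CPM in Rgs5-high cells, against 83.5, 96.5, 109 and 103 CPM in Rgs5-low cells (log2 difference 1.38, SE 0.07, adjusted p = 7.54e-08).

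Signalling genes followed with both rises and falls. Of 41 tested genes of TGF-beta and BMP signalling 13 rose and 3 fell, with a median of 0.07. Bmpr1b, a type I BMP receptor, stood at 65.1, 77.9, 85.2 and 81.3 CPM in Rgs5-high cells, against 24.5, 28.5, 33.9 and 35.2 CPM in Rgs5-low cells (log2 difference 1.35, SE 0.06, adjusted p = 1.75e-08). Grem1, a secreted BMP antagonist, had 29, 108, 29 and 98 UMIs in Rgs5-high cells, against 0, 6, 0 and 6 in Rgs5-low cells, too few there for a fold. Of 15 tested Notch pathway genes 4 rose and 6 fell, with a median of −0.34, and Hey2, a transcriptional repressor downstream of Notch, stood at 19.1, 15, 26.7 and 27.3 CPM in Rgs5-high cells, against 47.3, 50.2, 65.6 and 51.4 CPM in Rgs5-low cells (log2 difference −1.28, SE 0.11, adjusted p = 3.7e-06). Of 22 tested Wnt ligands and modulators 7 rose and 8 fell, with Frzb, a secreted Wnt antagonist, at 69.8, 63.7, 40.1 and 69.3 CPM in Rgs5-high cells, against 5.62, 6.31, 8.56 and 8.62 CPM in Rgs5-low cells (log2 difference 3.09, SE 0.16, adjusted p = 8.46e-08). Fzd1, a Wnt receptor, fell, with a log2 difference of −0.99. Of 29 tested growth factor, chemokine and IGF genes 6 rose and 11 fell. Of 19 tested TGF-beta target genes 5 rose and 4 fell, and of 16 genes of calcification and cartilage 7 rose and 4 fell, Runx2, a factor of bone formation, among the rises (4.53).

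Further strong falls took in genes of varied kind. Wnt16, a secreted Wnt ligand, stood at 40.4, 23.6, 69.6 and 59.5 CPM in Rgs5-high cells, against 124, 130.4, 132 and 145 CPM in Rgs5-low cells (log2 difference −1.53, SE 0.17, adjusted p = 3.96e-05). Every Rgs5-high library lay below every Rgs5-low library. The 15 largest falls also included Rapgef5, Bex4, Tnxb, Olfml2a, Lgals3, Tesc, Crip1, Krt18, Itga5, Rbp4, Sncg and Tbx20, with log2 differences of −1.41 to −2.45.

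**Figure D4:**
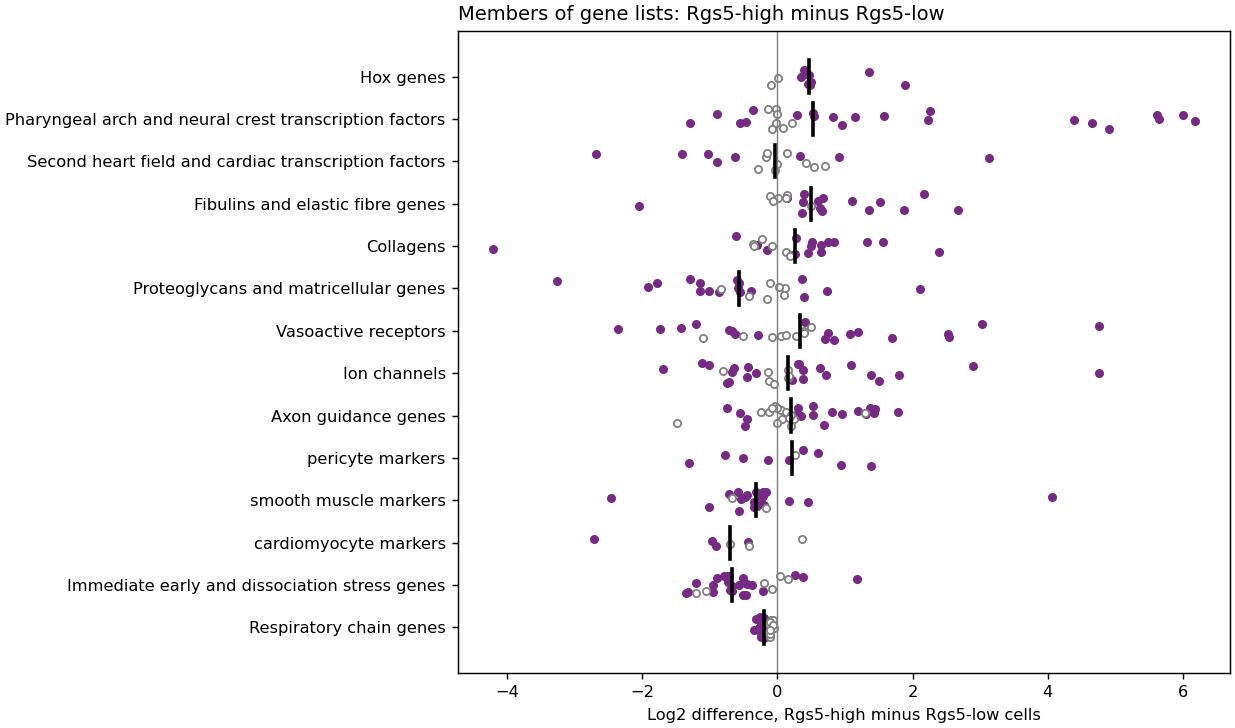
Log2 difference (Rgs5-high minus Rgs5-low cells) of each tested member of 14 gene lists, filled where the adjusted p was under 0.05 and open otherwise, with the list's median as a black bar. Arch and neural crest factors spread furthest to the right, with a median of 0.53, and immediate early genes lie mostly to the left, with a median of −0.67.

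Some Rgs5-high cells held Dlx5 or Dlx6 and others did not. A UMI of Dlx5 or Dlx6 was found in 139 of 262 and 363 of 486 Rgs5-high cells of the KO libraries (53.1% and 74.7%) and in 107 of 249 and 270 of 451 of the WT libraries (43.0% and 59.9%). In Rgs5-low cells the share was 3.55% and 4.55% in KO and 2.70% and 3.46% in WT. Conversely, of all cells with such a UMI 41.6% and 61.5% were Rgs5-high in KO and 60.8% and 69.4% in WT. Cells with and without the UMI had median totals of 11852 and 13324 UMIs in KO 1, 12976 and 13701 in KO 2, 14840 and 15487 in WT 1 and 14231 and 15374 in WT 2, so the cells with the UMI were the shallower ones in each library. The levels that follow compare these cells within the group as a description, in CPM of their own UMIs. Adamtsl1 stood at 259.6, 333, 172 and 236 CPM in Rgs5-high cells with a Dlx5 or Dlx6 UMI (KO 1, KO 2, WT 1 and WT 2), against 38.1, 72.0, 11.0 and 21.3 CPM in those with none. Fbln1 stood at 81.6, 73.5, 186 and 157 CPM with a UMI and at 8.79, 16.4, 11.4 and 15.2 CPM with none. Rgs5 itself differed less, at 1410.0, 1788, 2164 and 2651 CPM with a UMI and 1023, 1137, 1296 and 1379 CPM with none. Tnnt2, cardiac troponin T, ran the other way, at 14.3, 30.0, 71.9 and 18.4 CPM with a UMI and 622, 452, 223 and 145 CPM with none. Hand2 stood at 69.1, 44.5, 54.2 and 33.5 CPM with a UMI and 174, 168, 128 and 115 CPM with none. In Rgs5-low cells Tnnt2 stood at 482, 396, 147 and 200 CPM on the TMM scale. The Tnnt2 and Hand2 levels of Rgs5-high cells with no such UMI were thus higher than those with one in every library.

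Within Rgs5-high cells, KO was compared with WT to ask which genes differ with genotype in this group. In KO 513 of 11697 tested genes stood higher (4.39%) and 739 lower (6.32%) at an adjusted p under 0.05, 10.7% in all. The libraries of the 2 genotypes did not overlap in 51.6% of tested genes. Of the 5 other genes named with the group, 2 were higher and 2 lower in KO, and 1 did not pass. Adamtsl1 stood at 139 and 242 CPM in KO and 78.6 and 141 CPM in WT, where KO 1 and WT 2 overlapped (log2 difference 0.78, SE 0.23, adjusted p = 0.0416). Without KO 2 its difference was 0.31 with an adjusted p of 0.154, and DESeq2 gave an adjusted p of 0.795. Prrx2 stood at 214 and 254 CPM in KO and 78.3 and 130.5 CPM in WT with no overlap (log2 difference 1.14, SE 0.17, adjusted p = 0.000362). Fbln1 stood at 42.1 and 53.5 CPM in KO and 84.7 and 94.4 CPM in WT (log2 difference −0.89, SE 0.12, adjusted p = 0.000234). Sfrp2 stood at 519 and 604 CPM in KO and 689 and 977 CPM in WT (log2 difference −0.57, SE 0.14, adjusted p = 0.0126). Without WT 2 the difference of Sfrp2 was −0.29, and DESeq2 did not call it (adjusted p = 0.359). Dlx6 did not pass, at 58.7 and 85.0 CPM in KO and 38.5 and 70.0 CPM in WT (log2 difference 0.39, SE 0.21, adjusted p = 0.305), but passed without WT 2 (0.93, adjusted p = 4.641e-07) and without KO 1 (0.60, adjusted p = 0.0117). The share of cells with a Dlx5 or Dlx6 UMI also differed between these libraries, as given above. Within the cells with such a UMI alone, Adamtsl1 and Prrx2 were higher in both KO libraries than in either WT library, Prrx2 at 304 and 326 CPM in KO and 139 and 198 CPM in WT. Fbln1 and Sfrp2 were lower there in both KO libraries, Sfrp2 at 789 and 785 CPM in KO and 1200 and 1491 CPM in WT. Levels within these cells are CPM of their own UMIs, without further scaling.

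Matrix genes and targets of TGF-beta were lower in KO Rgs5-high cells. Of 19 tested TGF-beta target genes 12 fell and 0 rose, with a median of −1.20 against 0.00 over all genes. Of 21 collagens 12 fell and 3 rose, of 20 elastic fibre genes 10 fell and 1 rose (Efemp1), and of 23 proteoglycan and matricellular genes 16 fell and 2 rose. Col15a1, a basement membrane collagen, stood at 11.1 and 8.17 CPM in KO and 422 and 481 CPM in WT (log2 difference −5.61, SE 0.15, adjusted p = 7.95e-12), and Mfap4, a microfibril protein whose reads may be shared with Mapk7 on the other strand, at 78.9 and 63.0 CPM in KO and 1043 and 1062 CPM in WT (log2 difference −3.91, SE 0.12, adjusted p = 3.19e-11). AA465934, annotated as a processed transcript that hosts a small non-coding RNA, stood at 0 and 1.09 CPM in KO and 98.8 and 96.5 CPM in WT (log2 difference −7.03, SE 0.27, adjusted p = 3.59e-10). Ccn2, a matricellular TGF-beta target, stood at 319.9 and 318 CPM in KO and 1959 and 2034 CPM in WT (log2 difference −2.65, SE 0.10, adjusted p = 2.03e-10). The 10 largest falls also included Aspn (overlapped by Cenpp on the other strand), Mylk4, Fos, Ccn5, Itgbl1 and Nupr1, with log2 differences of −2.96 to −3.72. AA465934 had 0 UMIs in KO 1, so the size of its difference depends on how such counts are handled. In Rgs5-low cells the KO effect on the falls named here other than Ccn2 ran, on the log2 scale, between −2.39 for Itgbl1 and −6.46 for AA465934, in cells of the same libraries. Of 12 tested Notch pathway genes 5 fell and 1 rose, and of 23 basement membrane genes 11 fell and 1 rose. Of 19 tested endoplasmic reticulum stress genes 13 fell and 0 rose, and of 27 immediate early genes 10 fell and 1 rose. These falls were shared with Rgs5-low cells in the lists that follow. There 15 of 19 TGF-beta target genes fell and 1 rose, 13 of 24 collagens fell and 5 rose, and 18 of 20 endoplasmic reticulum stress genes fell and 0 rose. Over all 13998 genes tested in Rgs5-low cells, 12.1% fell and 10.6% rose.

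Eln, which encodes elastin, was lower in KO Rgs5-high cells, and in KO a few cells carried most of it. Eln stood at 717 and 368 CPM in KO and 3333 and 3771 CPM in WT in Rgs5-high cells (log2 difference −2.72, SE 0.21, adjusted p = 9.77e-07) and at 325 and 232 CPM in KO and 2803 and 2697 CPM in WT in Rgs5-low cells. Eln at or above the median WT Rgs5-low cell (2286 CPM) was found in 6 of 262 and 7 of 486 KO Rgs5-high cells (2.29%, interval 0.845 to 4.92%, and 1.44%, interval 0.581 to 2.95%) and in 12 of 3689 and 12 of 2728 KO Rgs5-low cells (0.325%, interval 0.168 to 0.568%, and 0.440%, interval 0.227 to 0.767%). Those 6 and 7 cells held 68.3% and 51.9% of the Eln UMIs of the KO Rgs5-high cells. Pmepa1, a feedback inhibitor induced by TGF-beta, stood at 2941 and 2644 CPM in them, against 174 and 171 CPM in the other KO Rgs5-high cells. tdTomato, the reporter before recombination, stood at 149.8 and 93.0 CPM in them, against 6.94 and 10.2 CPM in the others, from 11 and 12 UMIs. eGFP stood at 6495 and 4652 CPM in them, against 7441 and 6855 CPM in the others. The limit of 2286 CPM and these Pmepa1, tdTomato and eGFP levels are CPM of the cells' own UMIs, without further scaling. Of the 13 cells, 3 in KO 1 and 5 in KO 2 held at least 5 UMIs of endothelial, macrophage and glial markers together. Among the 13, 0 had a doublet score among the highest 5% of their library. In a fit without high doublet scores and cells with such markers, the KO effect on Eln differed between the classes by −0.20 (adjusted p = 0.819). That fit leaves out those 3 and 5 cells, and the part of other cells in this result was not otherwise tested. All 13 had a Dlx5 or Dlx6 UMI, and without them unscaled Eln was 248 and 199 CPM in KO Rgs5-high cells.  In a fit without all KO cells of this kind, in both classes, the elastic fibre genes gave 12 rises and 1 fall between the classes, and the class difference of Eln, on which these cells were chosen, lost its call (log2 difference 0.07, SE 0.11, adjusted p = 0.704, against 0.64, SE 0.11, adjusted p = 0.000862, with them). With them the KO effect on Eln differed between the classes by 0.54, which did not pass (adjusted p = 0.0553). Leaving out KO cells picked for high Eln lowers KO Eln by construction, more so in the class that holds more of them, so no Eln difference is read from that fit.

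Interferon-stimulated genes were among the rises in KO Rgs5-high cells. In Rgs5-low cells of the same libraries 16 of 23 tested members rose in KO and 1 fell, with a median of 1.28. Over all 13998 genes tested there, 10.6% rose and 12.1% fell. Of 24 members, 0 passed the test for a different KO effect between the classes. Only 0.81% of all 13701 genes passed it, so a count of 0 does not set these members apart. Of the 20 tested in Rgs5-high cells, 9 rose and 0 fell, with a median of 0.71, and the levels below are of these cells. Ifitm3, an interferon-induced membrane protein, stood at 478 and 357 CPM in KO and 129.7 and 119 CPM in WT (log2 difference 1.74, SE 0.13, adjusted p = 5.17e-07). Isg15, a ubiquitin-like protein, stood at 25.8 and 15.9 CPM in KO and 5.13 and 2.93 CPM in WT (log2 difference 2.40, SE 0.31, adjusted p = 0.000106), and Ifi27l2a at 15.2 and 33.2 CPM in KO and 1.80 and 2.23 CPM in WT (log2 difference 3.61, SE 0.38, adjusted p = 1.47e-05). All were taken from the 10 largest rises, for which no overlap between KO and WT libraries was required. Rasl10b, a Ras-like protein, stood at 25.5 and 43.2 CPM in KO and 6.42 and 5.58 CPM in WT (log2 difference 2.59, SE 0.25, adjusted p = 6.53e-06). Pln, phospholamban, an inhibitor of the calcium pump of the sarcoplasmic reticulum, stood at 45.4 and 19.1 CPM in KO and 5.90 and 6.55 CPM in WT (log2 difference 2.25, SE 0.35, adjusted p = 0.000541). Its KO libraries differed from each other by more than the WT libraries did, and it overlaps Cep85l on the other strand. Tmem176b, Itih4, Lgals3bp, Ddit4l and Clec2d completed the 10 largest rises, with log2 differences of 1.69 to 2.91.

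Of 26 tested arch and neural crest factors 4 were higher in KO (among them Prrx1, Tfap2b and Sox9), 1 was lower (Osr1) and 21 did not pass. Tfap2b stood at 24.9 and 37.6 CPM in KO and 5.65 and 16.2 CPM in WT (log2 difference 1.42, SE 0.29, adjusted p = 0.00415), a call that DESeq2 did not make (adjusted p = 0.402), and Msx2 at 31.9 and 56.2 CPM in KO and 28.5 and 44.3 CPM in WT (log2 difference 0.29, SE 0.22, adjusted p = 0.508). The difference of Msx2 was −0.23 without KO 2, and it passed without KO 1 (0.58, adjusted p = 0.0114) and without WT 2 (0.69, adjusted p = 0.0022). Of 9 tested Hox genes and of 30 respiratory chain genes 0 passed in edgeR's test, where 2593 of 11697 genes had an unadjusted p under 0.05. Kcnj8 stood at 147 and 166 CPM in KO and 59.3 and 69.9 CPM in WT (log2 difference 1.27, SE 0.11, adjusted p = 3.34e-06). Ednra stood at 36.3 and 59.8 CPM in KO and 25.2 and 32.9 CPM in WT (log2 difference 0.74, SE 0.19, adjusted p = 0.0198). Without KO 2 the difference of Ednra was 0.29, and DESeq2 did not call it (adjusted p = 0.0897). Rgs4 stood at 84.5 and 90.1 CPM in KO and 156 and 129.7 CPM in WT (log2 difference −0.70, SE 0.11, adjusted p = 0.000728). Kcnj8 and Ednra were thus higher and Rgs4 lower in KO.

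**Figure D5:**
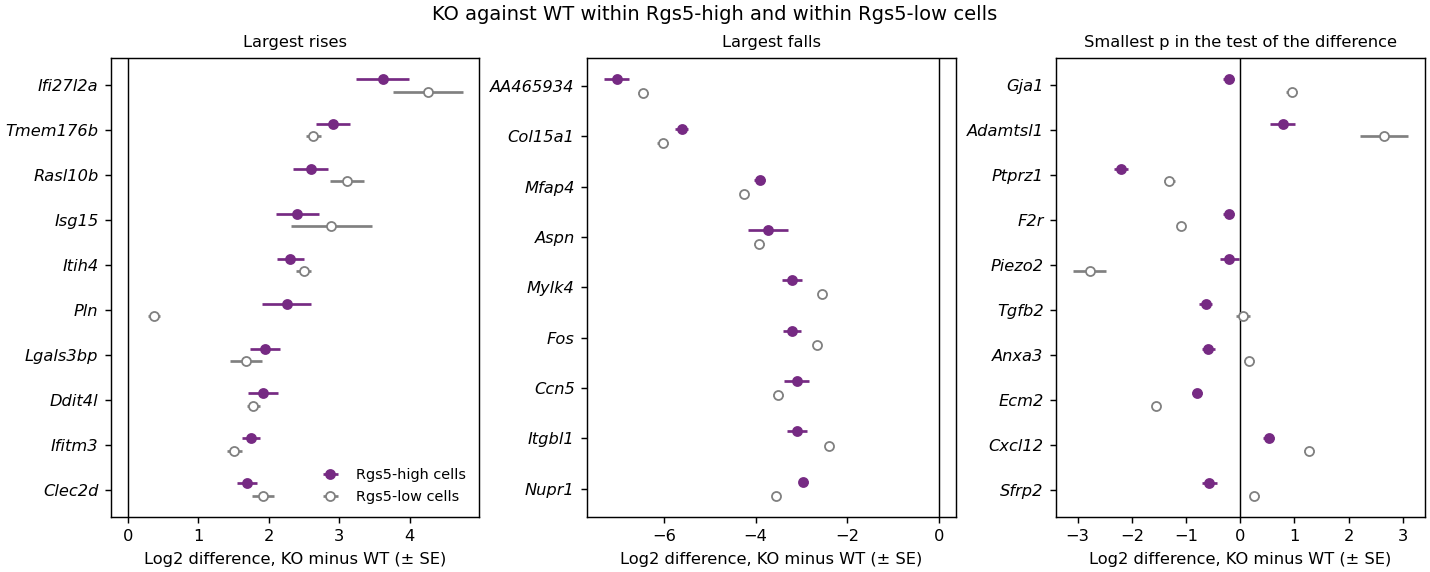
Log2 difference (KO minus WT, with its standard error) within Rgs5-high cells (filled) and within Rgs5-low cells (open) for the 10 largest rises, 9 of the 10 largest falls and, in the right panel, 10 genes ranked by the p of the class difference in KO effect. The rises and falls lie on the same side of 0 in both classes, while in the right panel Gja1 and Piezo2 lie near 0 in Rgs5-high cells and away from 0 in Rgs5-low cells.

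Whether the KO effect differed between Rgs5-high and Rgs5-low cells was tested as an interaction of class and genotype. Of 13701 genes 43 had a more positive effect in Rgs5-high cells (0.314%) and 68 a more negative one (0.496%), 0.81% in all, against 1267 with an unadjusted p under 0.05. This count was 370 without KO 1 and 58 without the KO cells high in Eln. Adamtsl1 was higher in KO Rgs5-low cells, at 2.53 and 5.69 CPM in KO and 0.364 and 0.846 CPM in WT, and its KO effect was smaller in Rgs5-high cells (log2 difference −1.92, SE 0.22, adjusted p = 0.000221). These Rgs5-low levels rest on 125 and 212 UMIs in KO and 10 and 31 in WT. A UMI was found in 1.95% and 3.12% of those cells in KO and 0.4% and 0.903% in WT. The size of the difference thus depends on few cells, and Adamtsl1 was named with the group with results of these data known. Fbln1 was lower in KO among Rgs5-high cells and did not pass among Rgs5-low cells (adjusted p = 0.134), where it stood at 1.96 and 4.43 CPM in KO and 2.00 and 1.61 CPM in WT (interaction log2 difference −1.73, SE 0.24, adjusted p = 0.00121). Piezo2, a stretch-gated channel, stood at 15.8 and 16.1 CPM in KO and 16.7 and 19.5 CPM in WT in Rgs5-high and at 0.89 and 0.51 CPM in KO and 3.68 and 5.97 CPM in WT in Rgs5-low cells (log2 difference 2.61, SE 0.32, adjusted p = 0.000414). F2r, the thrombin receptor, stood at 93.6 and 97.3 CPM in KO and 107 and 114 CPM in WT in Rgs5-high and at 41.8 and 42.1 CPM in KO and 90.3 and 85.3 CPM in WT in Rgs5-low cells (log2 difference 0.84, SE 0.10, adjusted p = 0.000221). For both, the KO and WT levels lay close together in Rgs5-high cells and apart in Rgs5-low cells. Gja1, the gap junction protein connexin 43, stood at 103 and 91.5 CPM in KO and 119 and 107 CPM in WT in Rgs5-high and at 172 and 222 CPM in KO and 98.5 and 102 CPM in WT in Rgs5-low cells (log2 difference −1.19, SE 0.13, adjusted p = 0.000221). The smaller KO effects on Fbln5, Pmepa1 and Nupr1 in Rgs5-high cells (0.50, 0.66 and 0.58, adjusted p = 0.0377, 0.00221 and 0.00588) lost their calls without the KO cells high in Eln, with adjusted p-values of 0.807, 0.244 and 0.344. Such cells were commoner in the Rgs5-high class, and Pmepa1 was higher in them. Leaving them out lowers KO Pmepa1 more in that class by construction, so nothing is read from its lost call. Whether the same holds for Fbln5 and Nupr1 was not tested. Fbln5 also lost its call without WT 1 (adjusted p = 0.481) and Nupr1 without WT 2 (adjusted p = 0.0543). These 3 genes and Eln were picked after their values were seen.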

How the data were processed

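Raw UMI counts of each gene in each barcode were deposited for the 4 libraries. The file headers give Cell Ranger 5.0.1 as their source, and the submitters' processing notes name the build mm10 and Seurat 4.0. Whether counting used strand is not given in the sources used here. Barcodes needed 1000 UMIs, 500 genes and at most 10% of UMIs from mitochondrial genes, which 13468 of 14696 met, where the labels state 4031, 3246, 2151 and 3000 cells after the study's own filter (KO 1, KO 2, WT 1, WT 2). Scrublet's automatic threshold marked 1, 4, 23 and 7 cells, too few to have worked, and no doublet was removed except in 1 alternative. Counts were summed per library and class and tested with edgeR 4.0.16 (R 4.3.3) quasi-likelihood fits, TMM scaling, filterByExpr and Benjamini-Hochberg adjustment over all tested genes. The class fit had the library as a block and left out Rgs5; the genotype fits had no block. The scripts were tested on simulated data. DESeq2 1.42.0 and limma-voom 3.58.1 were alternatives. Replicates of a genotype differed by more than counting error.

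The members and gene lists were chosen with earlier results of these data known. Named genes are the group's markers, the targeted genes, the 15 largest rises and falls between classes and 10 between genotypes (mean of at least 20 CPM where higher, same direction in all libraries or no overlap, unnamed gene models excluded), the 10 smallest p-values of the interaction, and the 3 smallest of each list; all other genes, such as Hand2, Acta2 and Rgs4, were picked after their values were seen. Some genes that these rules name are not reported here. Intervals and the limit from a count of 0 (3 counts) cover counting error only. Replicate numbers shared by KO and WT were not taken to pair libraries.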

Additional observations from a re-analysis of the deposited data

Results flagged for a closer look

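For 10 genes the KO effect differed between Rgs5-high and Rgs5-low cells with the smallest p-values of the interaction test (edgeR, adjusted over 13701 genes). The difference of the KO effects, in Rgs5-high minus Rgs5-low cells on the log2 scale, was −1.19 for Gja1, −1.92 for Adamtsl1, −0.92 for Ptprz1, 0.84 for F2r and 2.61 for Piezo2. It was −0.73 for Tgfb2, −0.78 for Anxa3, 0.73 for Ecm2, −0.75 for Cxcl12 and −0.84 for Sfrp2. Tgfb2, a TGF-beta ligand, stood at 88.3 and 113 CPM in KO and 171 and 147 CPM in WT in Rgs5-high cells and at 130 and 180.0 CPM in KO and 156 and 139 CPM in WT in Rgs5-low cells (interaction adjusted p = 0.000841). Cxcl12, a chemokine of mural cells, stood at 183 and 165 CPM in KO and 126 and 115 CPM in WT in Rgs5-high cells and at 71.9 and 65.4 CPM in KO and 26.6 and 29.4 CPM in WT in Rgs5-low cells (adjusted p = 0.000885). Ptprz1, a receptor tyrosine phosphatase, stood at 79.8 and 95.7 CPM in KO and 463 and 353 CPM in WT in Rgs5-high cells and at 139 and 175 CPM in KO and 403 and 366 CPM in WT in Rgs5-low cells (adjusted p = 0.000221). Anxa3, an annexin, stood at 99.2 and 109 CPM in KO and 173 and 142 CPM in WT in Rgs5-high cells and at 215 and 265 CPM in KO and 217 and 204 CPM in WT in Rgs5-low cells (adjusted p = 0.000883). Ecm2, a matrix protein whose gene overlaps Cenpp on the other strand, stood at 171 and 188 CPM in KO and 304 and 320.0 CPM in WT in Rgs5-high cells and at 117 and 114 CPM in KO and 339.5 and 325 CPM in WT in Rgs5-low cells (adjusted p = 0.000885). Sfrp2 stood at 197 and 179.9 CPM in KO and 141 and 168 CPM in WT in Rgs5-low cells (adjusted p = 0.000958), where the order of the genotypes was the opposite of that in Rgs5-high cells. The 2 libraries per genotype and class are too few for a check of single outlying libraries.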

How the results depend on the processing

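Counts of called genes depended on the test and the filter more than directions did, and the cause was not tested. Between classes (3346 called) the count was 1977 with a mean of at least 20 CPM, which tests fewer genes, and 2360 to 3315 without each library in turn. Between genotypes in Rgs5-high cells (1252) it was 574 with DESeq2 and 1051 to 1394 without each library, and in Rgs5-low cells (3180) 1545 with at least 20 CPM and 2187 to 2709 without each library. The interaction count (111) varied most of the 4, with 30 genes in DESeq2, 310 with no filter, 32 with at least 20 CPM, 63 with at least 3000 UMIs and at most 5% mitochondrial UMIs, 176 with at least 10 Rgs5 UMIs per 10000, 41 without high doublet scores and cells with other markers, 58 without the KO cells high in Eln (chosen after seeing the data), and 75 to 370 without each library (370 without KO 1). In fits that leave 1 library in a genotype, the lone library is assumed to vary like the others. The share difference of −2.05 points ran from −5.87 to 1.77 without each library, and was 1.77 without KO 1. With the replicate number as a block, the counts were 1893 (Rgs5-high), 3673 (Rgs5-low) and 32 (interaction). Without the library block the class count was 1208, and 9 of the named genes lost their calls, among them Tnxb, Rgs4 and Abcc9 (adjusted p = 0.108, 0.158 and 0.0766). Same-numbered libraries deviated together only weakly (r = 0.178 in Rgs5-high and −0.083 in Rgs5-low cells), so the numbers were not taken as pairs. With the block, Ptprz1, Tgfb2, Anxa3, Fbln1 and Fbln5 lost their interaction calls (adjusted p = 0.0932, 0.332, 0.0816, 0.0508 and 0.1545). Among genes named in the text, the call and direction were kept in 797 of 809, 410 of 428 and 198 of 224 repeats (classes, genotypes, interaction). Direction turned for Msx2 between genotypes (0.29), which ran from −0.23 without KO 2 to 0.69 without WT 2, and for the interaction of Eln without the KO cells high in Eln (−0.65, which follows from leaving them out) and without high doublet scores and cells with other markers (−0.20).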
